A study of Mus musculus with 51 samples.

Results

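Paclitaxel (PTX) is a chemotherapy drug that stabilises microtubules. Its main side effect on the nervous system is a painful neuropathy, and the lumbar spinal cord is where the affected sensory neurons end. The libraries described here are 3 spinal cord libraries taken 1 day after PTX, which the labels list under the source name Spine (set B), and the 3 vehicle libraries of day 1, listed under the source name Spinal cord (set A). They were chosen by these titles and source names and make up 6 of the 51 samples of the series. All mice were male C57, 8 to 12 weeks old. PTX was injected intraperitoneally at 2 mg per kg, 2 times and 1 day apart, and the controls received vehicle. No transgene or mutation was named for any group. Groups used for context were set B PTX at days 22 and 35, set A PTX at days 1 and 7, and vehicle at day 7, each of 3 libraries. Set B held no vehicle library, so drug and set cannot be told apart in any difference between set B and vehicle. The library titles gave day 1, whereas the series text listed other sampling days, and the titles were followed. The labels do not tell if the 3 libraries in each group had different mice as their source, so p-values measure the spread between these libraries, which may be technical.

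Glucocorticoids, the stress hormones of the adrenal gland, enter cells and bind a nuclear receptor that switches on a small set of genes in glia, vessels and neurons of the cord. The endoplasmic reticulum answers an excess of unfolded protein by raising its chaperones, and cells short of sterol raise the enzymes of cholesterol synthesis, which in the cord supply the lipid of myelin. Sensory neurons have their cell bodies outside the cord, in the dorsal root ganglia, and send only axons into it, so messenger RNA of genes such as Scn10a is normally abundant in ganglia and scarce in cord.

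Reads counted to genes numbered 17661067 to 19171936 per library in set B PTX day 1, against 25911725 to 30247230 in vehicle day 1. Set B had 23.0 ± 1.59 reads outside genes per 100 gene reads and vehicle had 18.7 ± 1.33 (mean ± SD, n = 3 each). The difference was larger than the spread, and the 2-sided exact permutation p was 0.1, the smallest that 3 against 3 libraries can give. Genes with at least 1 read numbered 17135 ± 66.3 in set B and 17655 ± 147 in vehicle (exact permutation p = 0.1). Oligodendrocyte and astrocyte markers were detected in each of the 6 libraries, with summed levels of 27177 to 29327 CPM (counts scaled to library size) in set B and 21981 to 30413 CPM in vehicle for the 16 oligodendrocyte genes. Values below are CPM on the scaled library sizes unless a log2 fold change is named. Levels are not corrected for gene length, so they are compared between libraries and not between genes.

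Replicate 1 of vehicle day 1 stood apart from the others of its group. The 10 genes of the sensory neurons of the ganglia summed to 13.5, 13.8 and 12.9 CPM in set B replicates 1, 2 and 3, against 12.3, 1216 and 1143 CPM in vehicle replicates 1, 2 and 3. Set A PTX day 1 held 795 to 2629 CPM, whereas vehicle day 7 held 12.9 to 14.5 CPM. Vehicle replicate 1 thus stood with set B, and vehicle replicates 2 and 3 stood with set A PTX day 1. Over all genes, set B replicate 2 and vehicle replicate 1 were the closest pair of the 6 libraries, with a chi-square per degree of freedom of 12.1 against 37.5 to 118 for the other 14 pairs. Whether each of these libraries carries the right label was not tested, and the labels were followed. The comparison was therefore also made against vehicle day 7 and with vehicle day 1 reduced to replicate 1, the last of which was chosen after the data were seen.

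Of 15815 genes tested in one fit of all 21 cord libraries, 1575 were called between set B PTX day 1 and vehicle day 1 by edgeR's quasi-likelihood test at a Benjamini-Hochberg (BH) adjusted p of 0.05, which is 9.96% of the genes tested. Of these, 647 were higher in set B (4.09%) and 928 were lower (5.87%), and 528 changed by more than 2-fold. The median log2 fold change of all genes was 0.001. For 3170 genes (20% of those tested) the libraries of the groups did not overlap. Genes both called and without overlap numbered 1244, of which 612 were higher and 632 lower. As shares of all 15815 genes tested, these are 7.87%, 3.87% and 4%. The spread in this fit was estimated over all 7 groups of cord libraries. Fitted on the 6 libraries alone, edgeR called 0 genes, with 2235 at an unadjusted p under 0.05 and a smallest adjusted p of 0.0677 among the named genes, while DESeq2 on the 21 libraries called 2231. With vehicle day 7 in place of vehicle day 1, 128 genes were called (0.809%), 106 higher and 22 lower, and with both vehicle days together 244 (1.54%). With vehicle day 1 reduced to replicate 1, 22 were called, 12 higher and 10 lower. Leaving out set B replicate 1 gave 468 calls, replicate 2 gave 2832 and replicate 3 gave 988. Leaving out vehicle replicate 1 gave 2525, replicate 2 gave 441 and replicate 3 gave 682.

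**Figure D1:**
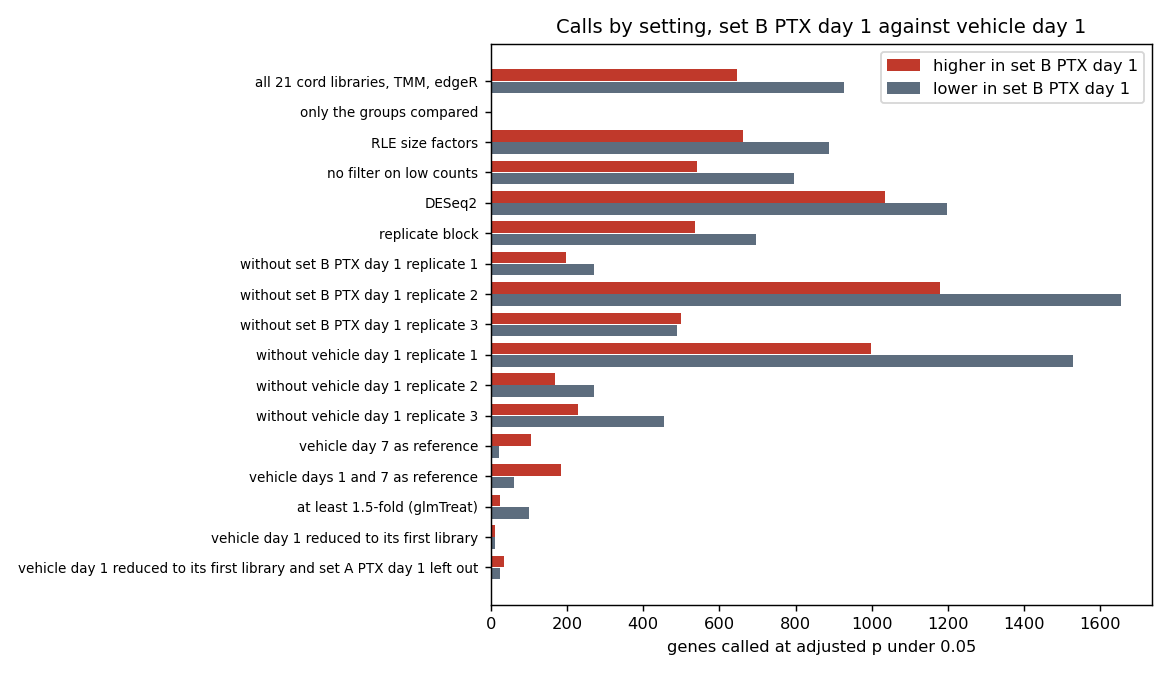
Number of genes called at an adjusted p of 0.05 (x axis) in set B PTX day 1 against vehicle day 1, higher (red) and lower (grey), under each setting listed on the y axis. The counts run from 0 with only the 6 libraries to 2832 without set B replicate 2, and the setting used in the text gives 647 higher and 928 lower.

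Of all lists, that of sensory ganglion neurons had the lowest median against vehicle day 1. All 10 members of that list were called lower, with a median log2 fold change of -6.70, against the background of 5.87% called lower. Scn10a, a sodium channel of pain-sensing neurons, measured 0.769, 1.51 and 0.338 CPM in set B, against 0.371, 241 and 225 CPM in vehicle replicates 1, 2 and 3. The groups overlapped through vehicle replicate 1, which lay within the range of set B, while the other vehicle libraries were far above it. The same order held for Scn11a, a related sodium channel, at 0.55, 0.783 and 0.225 CPM in set B against 0.222, 151 and 127 CPM in vehicle. Avil, an actin-binding protein of sensory neurons, was called lower too, at a log2 fold change of -7.44 ± 1.23 (BH-adjusted p from edgeR = 0.00382, n = 3 each). In the 3 vehicle ganglia libraries of the series, Scn10a stood at 773 to 1210 CPM. Against vehicle day 7 the list had 0 genes called and a median of 0.23, and against vehicle replicate 1 it had 0 called and a median of 0.15. The list summed to 12.9 to 13.8 CPM in set B, 12.9 to 14.5 CPM in vehicle day 7 and 12.3 CPM in vehicle replicate 1. Set B was thus not low against those libraries, and the difference lay in vehicle replicates 2 and 3. For any list in whole cord RNA, numbers of cells of a type and RNA per cell cannot be told apart.

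The rule for the lowest fold changes takes only genes without overlap, so vehicle replicate 1 lay above every set B library for each. For Scn10a and Scn11a it lay within or below the range of set B. Among the lowest chosen by rule was Acpp, a phosphatase of pain-sensing neurons, at a log2 fold change of -5.58. The membrane protein gene Tspan8 was at -4.83 and the neurotrophin receptor gene Ngfr at -4.64. Next came the prostacyclin receptor gene Ptgir at -4.63, the protease gene Mmp25 at -4.29, the phosphatase gene Ppef1 at -4.12 and Arhgap28, a regulator of small GTP-binding proteins, at -3.80. Against vehicle day 7, none of these 7 was called, Mmp25 and Ppef1 were at -0.58 and -0.26, and the other 5 were at 0.0093 to 1.03. Ngfr measured 6.16, 12.1 and 5.29 CPM in set B, against 16, 289 and 283 CPM in vehicle. Its groups did not overlap, but vehicle replicate 1 lay close to set B, and vehicle day 7 was at 6.37 to 8.92 CPM. Among the 928 genes called lower, 281 (30.3%) were at least 4-fold higher in vehicle ganglia than in day 7 vehicle cord, on CPM + 1, against 502 of the 15815 genes tested (3.17%) and 9 of the 647 genes called higher (1.39%). For 158 of those 281, vehicle replicate 1 lay within or below the range of set B, and it did so for 252 of all 928 called lower. The genes called lower had a median log2 fold change of -0.94 against vehicle day 1 and of -0.06 against vehicle day 7, and those called higher had 0.52 and 0.11. Both sets were chosen on the contrast with vehicle day 1, so the signs of their medians there are fixed by that choice. The part of tissue from the ganglia or their roots in vehicle replicates 2 and 3 was not tested.

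**Figure D2:**
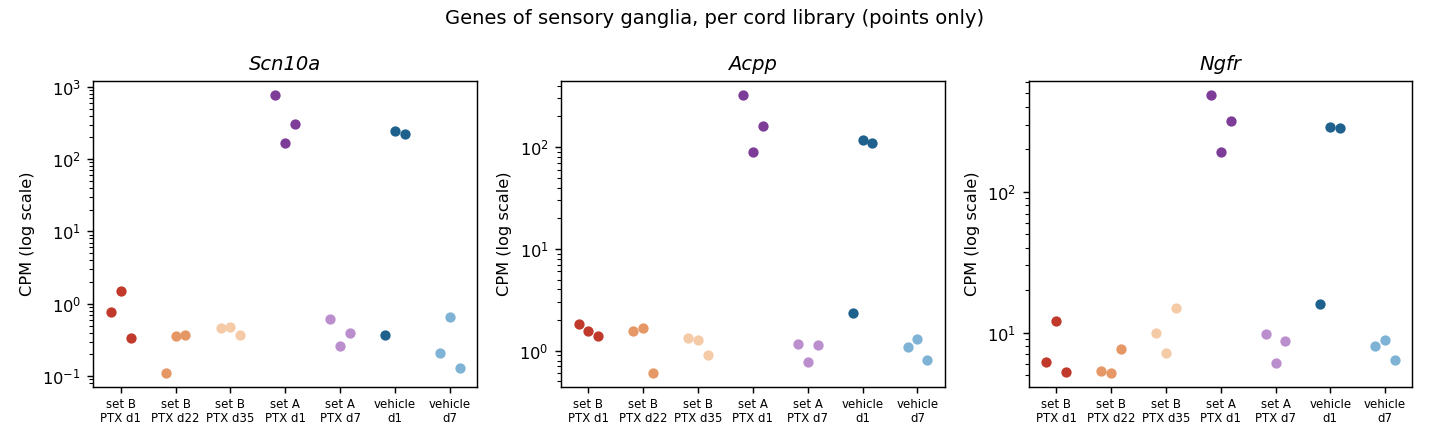
Levels of 3 genes of sensory ganglia (CPM, log scale) in each of the 21 cord libraries, 1 point per library. Set B PTX day 1 lies with vehicle replicate 1, vehicle day 7 and the later set B days, and far below vehicle replicates 2 and 3 and set A PTX day 1; Scn10a is at 0.338 to 1.51 CPM in set B day 1 and at 225 and 241 CPM in those vehicle libraries.

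Of the 18 genes listed as responding to glucocorticoids, 8 were called higher in set B PTX day 1 and 0 lower, against a background of 4.09% called higher, and the median log2 fold change was 0.47. Plin4, a coat protein of lipid droplets, measured 123, 79.0 and 96.4 CPM in set B, against 5.26, 11.7 and 7.17 CPM in vehicle. Every set B library lay above every vehicle library, which is a condition of the rule for the highest fold changes. The log2 fold change of 3.62 ± 0.33 was the highest chosen by that rule (BH-adjusted p from edgeR = 2.57e-05). Fkbp5, a co-chaperone that restrains the glucocorticoid receptor, stood at 95.5, 106 and 111 CPM in set B, against 28.5, 43.2 and 47.4 CPM in vehicle. These groups did not overlap, and the log2 fold change was 1.39 ± 0.18 (BH-adjusted p from edgeR = 0.000786). The metal-binding protein gene Mt2 measured 259, 412 and 342 CPM in set B, against 158, 127 and 155 CPM in vehicle, a log2 fold change of 1.20 ± 0.14. Mt1, its close relative, had a log2 fold change of 0.94 ± 0.15, and Hif3a, a transcription factor of the hypoxia family, had one of 2.18 ± 0.27. Errfi1, which dampens the epidermal growth factor receptor, had a log2 fold change of 0.70 ± 0.12.

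The other called members were less even between libraries. Sgk1, a kinase induced by glucocorticoids, measured 451, 481 and 477 CPM in set B, against 128, 182 and 297 CPM in vehicle. Its log2 fold change of 1.21 ± 0.36 (BH-adjusted p from edgeR = 0.0446) lost its call in 5 of the 6 fits that left out 1 library. The transcription factor gene Zbtb16 stood at 116, 29.1 and 29.6 CPM in set B, against 6.78, 6.98 and 11.2 CPM in vehicle. Its log2 fold change of 2.81 ± 0.64 became 1.82 without set B replicate 1, with an edgeR BH-adjusted p of 0.0890. Of the list, 6 to 9 members were called when 1 library of the groups was left out, 11 against vehicle day 7 (background 0.67% called higher) and 3 with vehicle day 1 reduced to replicate 1, with none called lower in any of these. The 3 were Plin4, Fkbp5 and Hif3a. In the fit of the 6 libraries alone no member was called, and Plin4 had an edgeR BH-adjusted p of 0.0677.

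The same list was higher at day 1 than at the later days of set B, which were unlike each other. It summed to 2547 to 3195 CPM at day 1, 1166 to 1236 CPM at day 22 and 1756 to 2214 CPM at day 35. Vehicle day 1 held 1436 to 1968 CPM, which overlaps day 35. In set A PTX day 1 the list summed to 2056 to 2312 CPM, above vehicle. Its median log2 fold change over vehicle was 0.44 there, with 0 members called. Against set B PTX days 22 and 35 together, 106 genes were called (0.67%), 94 higher at day 1 (0.594%) and 12 lower (0.0759%), and 9 of the 18 glucocorticoid-responsive genes were among the higher ones, with a median of 1.01. Plin4 was at 79.0 to 123 CPM at day 1 in set B, against 4.68 to 6.13 CPM at day 22 and 9.09 to 17.2 CPM at day 35. In set A, PTX day 1 gave 16.3 to 19.5 CPM, also above its vehicle, and a difference of 1.16 log2 units that was not called (edgeR, BH-adjusted p = 0.165). The difference between the day 1 PTX groups was itself called for Plin4, at 2.47 log2 units higher in set B (BH-adjusted p from edgeR = 0.00071). For Fkbp5 the day 1 PTX groups differed by 0.24 log2 units (BH-adjusted p from edgeR = 0.309), and set A PTX was at 77.9 to 94.8 CPM. The comparisons that include set B PTX day 1 share its libraries.

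**Figure D3:**
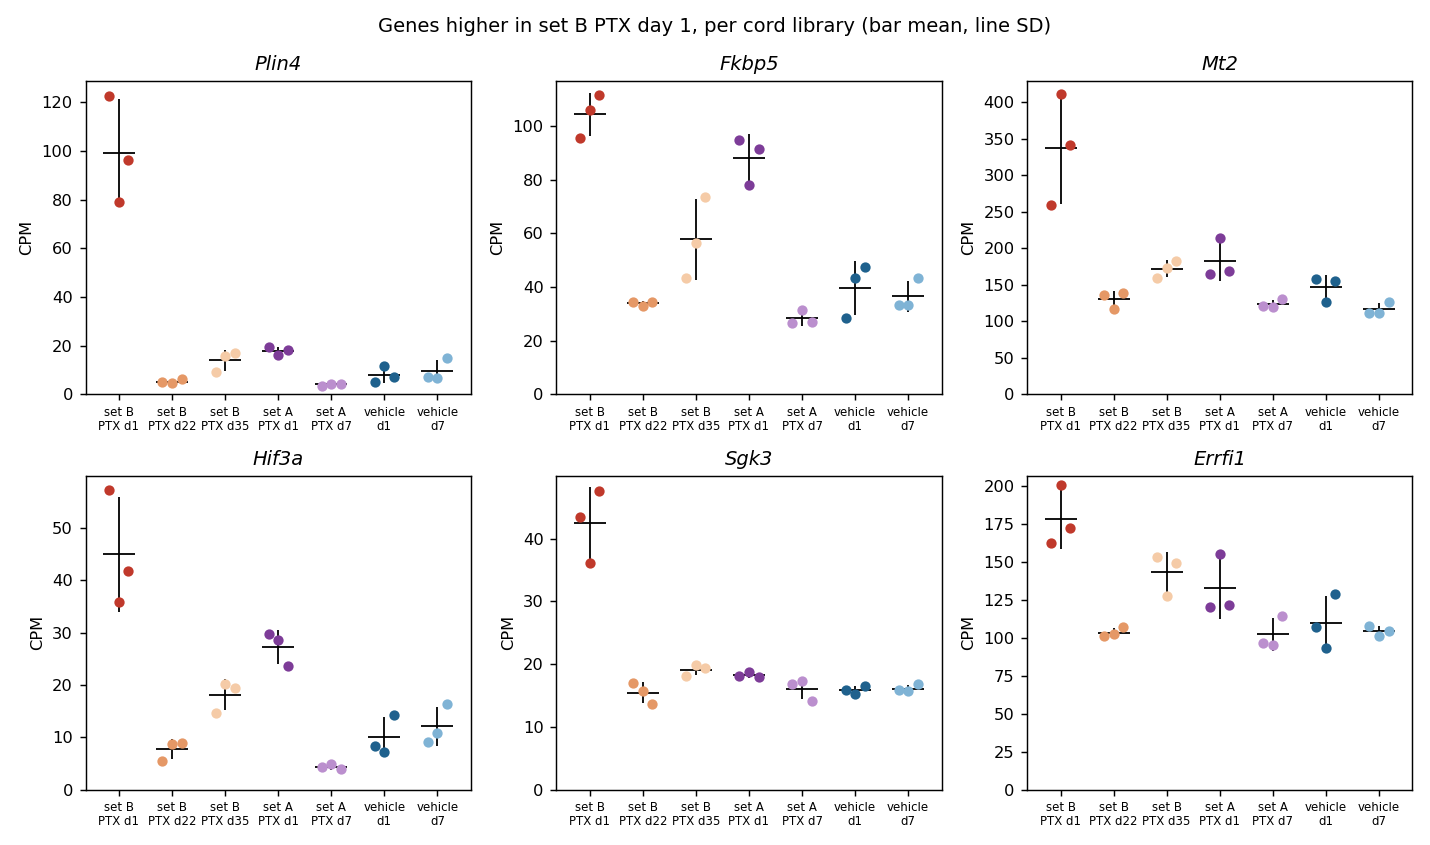
Levels of 6 genes (CPM, linear scale) in each cord library, with the mean (bar) and SD (line) of 3 libraries per group. The 3 set B PTX day 1 libraries lie above every vehicle library for all 6 genes; for Plin4 they lie at 79.0 to 123 CPM against 5.26 to 11.7 CPM in vehicle day 1.

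Several genes outside the rule had among the smallest p-values and were chosen after their values were seen. Sgk3, a kinase related to Sgk1, measured 43.5, 36.2 and 47.6 CPM in set B, against 15.9, 15.2 and 16.5 CPM in vehicle. The groups were far apart, and the log2 fold change of 1.42 ± 0.10 had the smallest adjusted p of all 15815 genes (BH-adjusted p from edgeR = 1.39e-06). Sgk3 stayed at 13.6 to 19.8 CPM in set B at days 22 and 35, at 17.9 to 18.8 CPM in set A PTX day 1 and at 15.7 to 16.8 CPM in vehicle day 7. Hr, a co-repressor of nuclear receptors, measured 180, 172 and 231 CPM in set B, against 68.6, 70.8 and 78.8 CPM in vehicle (log2 fold change 1.42 ± 0.17). Fam107a, an actin-associated gene of astrocytes, had a log2 fold change of 1.26 ± 0.15, the adiponectin receptor gene Adipor2 one of 1.13 ± 0.12 and the ion exchanger gene Slc24a4 one of 1.498 ± 0.18. Atp10a, a lipid-moving pump, and Rin2, a regulator of endosomes, rose by 1.18 ± 0.15 and 0.73 ± 0.09. All 7 kept their call in each fit that left out 1 library, but they were chosen for small p-values in these same libraries. With vehicle day 1 reduced to replicate 1, Sgk3, Adipor2 and Hr were still called, at log2 fold changes of 1.42, 1.21 and 1.504.

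Among the 8 highest fold changes chosen by rule, some rested on one library. Map3k6, a stress kinase, measured 21.4, 29.5 and 24.8 CPM in set B, against 3.97, 7.83 and 12.1 CPM in vehicle. Its log2 fold change was 1.66 ± 0.32 (BH-adjusted p from edgeR = 0.00613), and 2.67 with vehicle day 1 reduced to replicate 1. Rab11fip4, a partner of the recycling protein Rab11, measured 156, 8.39 and 11 CPM in set B, against 7.04, 6.59 and 7.45 CPM in vehicle. Only set B replicate 1 was far above vehicle, and the log2 fold change of 3.06 was 0.46 without that library. Cit, a kinase of cell division that neurons also express, stood at 178, 27.4 and 35.0 CPM in set B, against 24.8, 16.5 and 25.4 CPM in vehicle. Its log2 fold change of 1.85 became 0.49 without set B replicate 1, that of Gatsl2 was 0.48 without it and 1.67 with it, and that of the glycosyltransferase gene Galntl2 was 1.15 without it and 1.75 with it. In vehicle day 7 Rab11fip4 was at 117 to 148 CPM, and against that group its log2 fold change was -1.18.

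Markers of vessel lining and of glia were compared next, and their counts stand beside 4.09% of all genes called higher and 5.87% called lower. Of 14 endothelial genes 3 were called higher and 0 lower (median 0.15). Slc2a1, the glucose transporter of the blood-brain barrier, measured 436, 507 and 537 CPM in set B, against 241, 192 and 238 CPM in vehicle. The groups did not overlap, and the log2 fold change was 1.14 ± 0.16 (BH-adjusted p from edgeR = 0.000984). The surface protein gene Ly6c1 and the lipid transporter gene Mfsd2a rose by 0.68 ± 0.11 and 0.69 ± 0.14 log2 units, and Slc2a1, Ly6c1 and Mfsd2a were also called against vehicle day 7. Of 14 astrocyte genes 4 were called higher and 0 lower (median 0.54), namely the connexin gene Gjb6 at 1.07, Agt, the angiotensin precursor, at 0.86, the growth factor receptor gene Fgfr3 at 0.84 and the cystathionine synthase gene Cbs at 0.80. The astrocyte genes summed to 9379 to 11579.5 CPM in set B, against 5994 to 8431 CPM in vehicle day 1 and 9798 to 10396 CPM in vehicle day 7. Between 1 and 9 of them were called when 1 library was left out, and 0 against vehicle day 7. The microglial genes Csf1r, a growth factor receptor, and Tmem119 were called higher at 0.53 and 0.64 (2 of 16, median 0.30), and the precursor gene Gpr17 at 1.02 (1 of 10, median 0.41). Of 16 oligodendrocyte genes, Gm98, an older symbol of the myelin regulator Myrf, was called higher at 0.93, and Opalin and Aspa were called lower at -0.98 and -0.54 (median 0.23). Against vehicle day 7 the microglial, precursor and oligodendrocyte lists had 0 called, with Gpr17 at -0.69 and Gm98 at -0.14.

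Of 18 genes of the unfolded protein response, 10 were called higher and 1 lower, against backgrounds of 4.09% and 5.87%, with a median log2 fold change of 0.34. Hspa5, the main chaperone of the endoplasmic reticulum, measured 483, 550 and 446 CPM in set B, against 279, 316 and 304 CPM in vehicle. The groups did not overlap, and the log2 fold change was 0.72 ± 0.13 (BH-adjusted p from edgeR = 0.00428). Sdf2l1, a partner of Hspa5, stood at 17.6, 18.4 and 18.8 CPM in set B, against 6.86, 9.09 and 6.71 CPM in vehicle, a log2 fold change of 1.27 ± 0.20. The calcium-binding chaperone gene Calr rose by 0.44 ± 0.10, the co-chaperone gene Dnajc3 by 0.37 ± 0.09 and Hsp90b1, which lies outside the rule for named genes and is given for its promoter, by 0.31 ± 0.08. Trib3, a pseudokinase that also lies outside the rule, was the member called lower, at -1.06 ± 0.27. Leaving out vehicle replicate 2 or 3 left 4 members called higher, and leaving out set B replicate 1 left 5. Against vehicle day 7, 0 members were called and the median was 0.18, with Trib3 at 0.31 and Hsp90b1 at -0.018. Hspa5 was at 345 to 499 CPM in vehicle day 7, which overlaps set B.

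Some promoters of the list hold a known sequence, and 3 of those that do are shown. The endoplasmic reticulum stress element, a CCAAT and a CCACG with a fixed spacer between them and searched on both strands, was chosen after the values were seen. It was present in 6 of the 17 members with a promoter entry, among them 5 of the 9 called higher that had one, and in 39 of 32851 mouse promoters of the RefSeq table (0.119%). The sequences below are from RefSeq on GRCm38.p6, cover 250 bases before to 50 bases after the start site on the gene's own strand, and have the element in capitals. They come from chr2:34771840-34772139 (plus strand) for Hspa5, chr8:84846882-84847181 (minus strand) for Calr and chr10:86705395-86705694 (minus strand) for Hsp90b1, which holds 2 copies.
Hspa5: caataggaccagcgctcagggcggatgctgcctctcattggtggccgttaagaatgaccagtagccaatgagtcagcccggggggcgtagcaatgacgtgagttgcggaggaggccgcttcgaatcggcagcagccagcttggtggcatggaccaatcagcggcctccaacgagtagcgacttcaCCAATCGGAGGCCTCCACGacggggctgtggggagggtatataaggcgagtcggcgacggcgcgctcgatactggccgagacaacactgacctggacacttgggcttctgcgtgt
Calr: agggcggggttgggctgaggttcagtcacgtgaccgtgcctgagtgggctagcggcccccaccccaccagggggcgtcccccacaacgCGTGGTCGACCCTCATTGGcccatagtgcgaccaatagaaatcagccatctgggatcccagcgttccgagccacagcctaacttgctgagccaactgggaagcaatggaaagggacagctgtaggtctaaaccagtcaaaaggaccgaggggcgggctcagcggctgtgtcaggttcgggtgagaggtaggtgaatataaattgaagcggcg
Hsp90b1: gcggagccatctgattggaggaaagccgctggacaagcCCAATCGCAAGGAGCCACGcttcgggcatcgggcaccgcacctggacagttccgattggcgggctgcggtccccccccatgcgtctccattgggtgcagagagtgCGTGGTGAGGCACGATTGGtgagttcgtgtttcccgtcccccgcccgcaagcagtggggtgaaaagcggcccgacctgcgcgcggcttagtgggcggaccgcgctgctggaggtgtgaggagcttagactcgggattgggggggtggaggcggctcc
The match describes the letters only. The sterol element TCACCCCAC was in 1 of 11 cholesterol synthesis genes with a promoter entry (0.551% of all promoters), namely Hmgcs1, which is listed at 0 reads in every library. The glucocorticoid element ACANNNTGT was in 3 of 16 such genes of its list (6.85% of all promoters). The heat shock element GAANNTTC was in 9 of 16 genes (7.86%) and the E-box CACGTG in 5 of 15 clock genes (7.15%). For every element, a gene counted if any of its promoter entries held it, whereas the shares of all promoters count each entry, so the measures differ.

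Of 19 genes of cholesterol synthesis tested, 16 were called lower and 0 higher, against a background of 5.87% called lower, and the median log2 fold change was -0.77. Mvd, an enzyme of the mevalonate pathway, measured 22.0, 25.3 and 25.4 CPM in set B, against 41.8, 55.7 and 64.3 CPM in vehicle. The groups did not overlap, and the log2 fold change was -1.15 ± 0.15 (BH-adjusted p from edgeR = 0.000715). Dhcr7, which makes the last step to cholesterol, stood at 51.4, 54.6 and 59.3 CPM in set B, against 83.0, 114 and 115 CPM in vehicle, a log2 fold change of -0.92 ± 0.11. Sqle, which makes the squalene epoxide, fell to 92.9, 111 and 106 CPM in set B, against 149, 193 and 209 CPM in vehicle, and Sc4mol, a sterol oxidase, fell by 0.85 log2 units. The list summed to 1258 to 1529 CPM in set B, against 1939 to 2619 CPM in vehicle day 1, without overlap. In vehicle day 7 it summed to 1410.2 to 1789 CPM, which overlaps set B. The later set B days were low as well, at 1526 to 1766 CPM at day 22 and 1406 to 1508 CPM at day 35. Between day 1 and those days together, 0 members were called, with a median of -0.15, so the low level was not particular to day 1. Against vehicle day 7, 2 members were called lower, of which Dhcr7 was one, with a median of -0.35. With vehicle day 1 reduced to replicate 1, 0 were called and the median was -0.53. Of the list, 10 to 16 members were called when 1 library was left out. Set A PTX day 1 held 2101 to 2889 CPM, and against it 18 of the 19 members were called lower in set B (background 14.4%), with a median of -1.03.

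**Figure D4:**
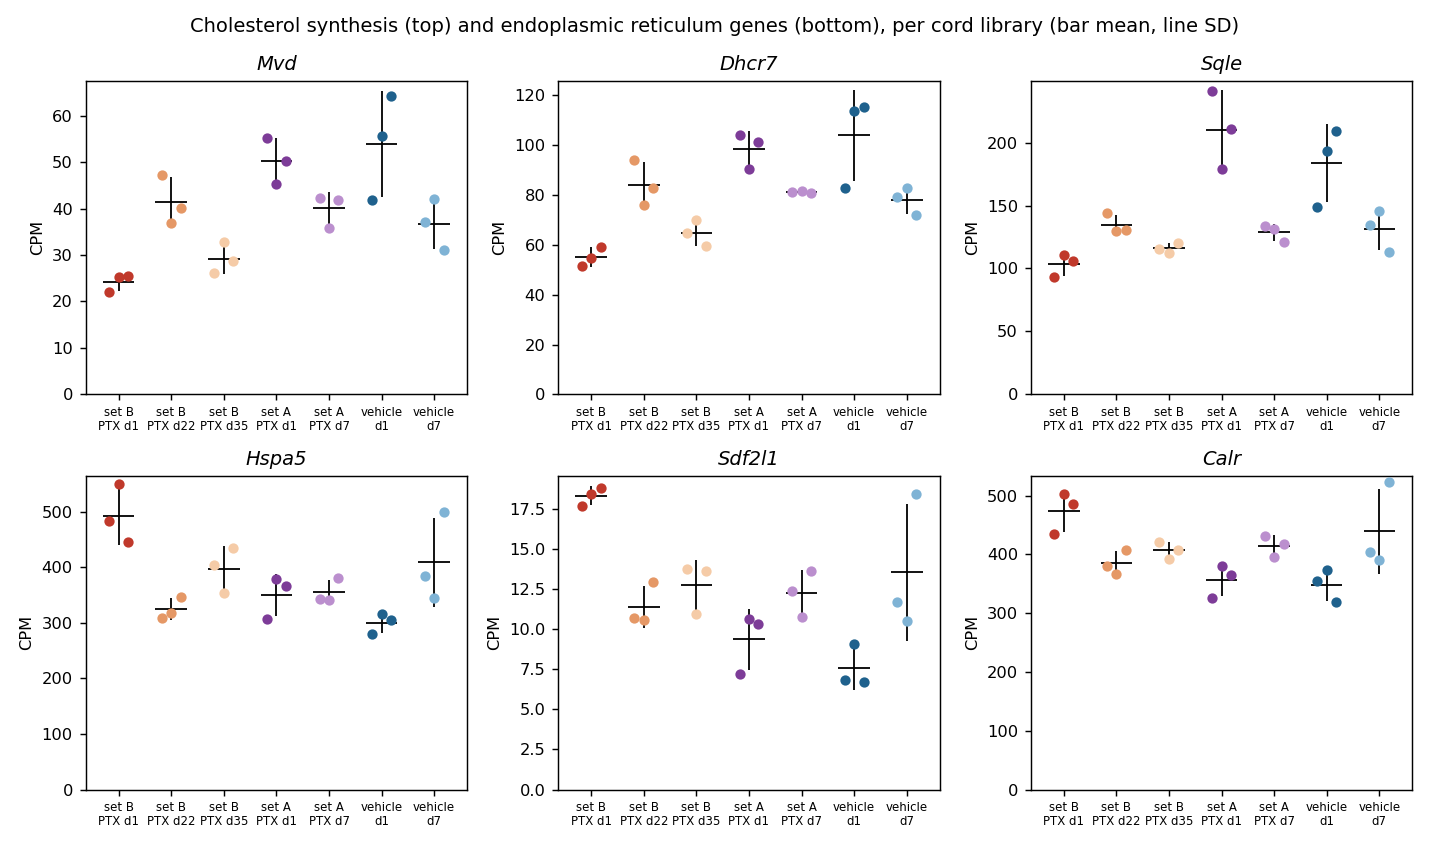
Levels of 3 cholesterol synthesis genes (upper row) and 3 endoplasmic reticulum genes (lower row) in each cord library (CPM, linear scale), with the mean (bar) and SD (line) of 3 libraries per group. Set B PTX day 1 lies below vehicle day 1 for the upper genes (Mvd 22.0 to 25.4 against 41.8 to 64.3 CPM) and above it for the lower genes, while vehicle day 7 lies between them for most.

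The drug binds tubulin, the protein of microtubules. Of 15 tubulin genes 2 were called lower and 0 higher (median -0.24), where 5.87% of all genes were called lower and 4.09% higher. Tuba1a, an alpha tubulin of growing neurons, measured 310, 367 and 334 CPM in set B, against 403, 730 and 734 CPM in vehicle, and vehicle replicate 1 was the nearest to set B. Tubb2b, a neuronal beta tubulin, had a log2 fold change of -0.84 ± 0.20 (BH-adjusted p from edgeR = 0.0154). Vehicle ganglia held 982 to 1218 CPM of Tuba1a and 140.1 to 172 CPM of Tubb2b, and against vehicle day 7 their log2 fold changes were -0.17 and -0.37, neither called. Of 26 genes of microtubule partners, Mtap7 was called higher at 0.48 and Ttl, the enzyme that adds tyrosine to tubulin, lower at -0.98 (median 0.06). Ttl stood at 92.8, 74.0 and 73.0 CPM in set B, against 71.2, 190 and 210 CPM in vehicle, so that vehicle replicate 1 lay below set B. Of 20 heat shock genes 3 were called higher and 1 lower (median 0.16). Hspa5 was one of them, and the others were Hsph1 at 0.53, Chordc1 at 0.39 and Bag3, which was lower at -1.15 and measured 50.4 CPM in vehicle replicate 1 against 165 and 181 CPM in the other vehicle libraries. With vehicle day 7 as the control, none of the tubulin, microtubule partner and heat shock genes was called, and Hsph1 and Chordc1 were at -0.17 and -0.12.

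Lists of cord neurons and of their channels and receptors are given beside the 9.96% of all genes called, 4.09% higher and 5.87% lower. Of 14 general neuronal genes 0 were called (median -0.11, smallest edgeR BH-adjusted p = 0.0725), and of 17 receptor genes for GABA and glycine and of 8 opioid genes 0 were called, at medians of 0.31 and 0.45. The most abundant members, Snap25, Gabbr1 and Penk, were at 0.28, 0.29 and 0.45. Of 12 motor neuron genes 3 were called lower (median 0.12), Isl1, Prph and Calca, and vehicle replicate 1 lay within or just below the range of set B for each of them. Prph stood at 51.8 to 79.9 CPM in set B, against 58.0, 702 and 645 CPM in vehicle. Of 13 genes of inhibitory neurons 2 were called higher (median 0.49), Lhx1 at 0.94 and Nos1 at 4.39. Nos1 measured 37.6, 0.447 and 0.225 CPM in set B, against 0.259, 0.552 and 1.01 CPM in vehicle, and without set B replicate 1 its log2 fold change was -0.83. Of 14 dorsal horn excitatory genes, Tacr1, the substance P receptor, was called higher at 0.77 (median 0.34), and 0.44 without set B replicate 1. Of 22 glutamate receptor genes Grin2c was called higher at 1.15 and Grik1 lower at -1.90 (median 0.39). Of 24 sodium and potassium channel genes Kcnc1 and Kcnc2 were called higher at 0.45 and 0.47 (median 0.22), and of 16 calcium channel genes Cacna1i was higher at 0.86 and Cacnb3 lower at -1.25 (median 0.26). Hoxa10 was called higher at 0.39 among 18 Hox genes (median 0.30). None of these lists had a call against vehicle day 7. Several log2 fold changes had the other sign there, with Grik1 at 0.14, Cacnb3 at 0.23, Cacna1i at -0.31, Kcnc1 at -0.13, Nos1 at -0.99, Lhx1 at -0.061, Tacr1 at -0.036 and Hoxa10 at -0.083. With vehicle day 1 reduced to replicate 1, Grik1 was at 0.0058.

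Genes of tissue around the cord are given beside the same backgrounds, 5.87% called lower and 4.09% higher. Of 7 fat cell genes tested 4 were called lower and Plin4 higher (median -2.45). Adipoq, the fat cell hormone adiponectin, was at 0.22, 0.391 and 0.113 CPM in set B, against 0.852, 1.72 and 1.17 CPM in vehicle, Cfd at 0.165 to 0.225 CPM in set B against 0.667 to 3.83 CPM in vehicle and Fabp4 at 0.169 to 1.37 CPM in set B against 2.19 to 8.9 CPM in vehicle. Plin4 went the other way, and the tissue source of these differences was not tested. Of 12 bone and cartilage genes 4 were called lower and 1 higher (median -0.74), including Comp and Ibsp at -3.26 and -4.08, Col2a1 at -1.496, and Acan, higher at 0.89. Of 7 genes of B and T cells 5 were called lower (median -2.66), including Cd79a, Cd79b and Ms4a1. Levels were low, since the 11 genes of this list in the tables together summed to 1.92 to 4.36 CPM in set B and 6.28 to 18.8 CPM in vehicle. Fabp7, which also marks glia of ganglia, was called lower at -1.30 among 13 Schwann cell genes (median -0.78), and Slc47a1 at -2.43 among 14 meningeal genes (median -0.80). The Schwann cell genes summed to 16244, 33255 and 18032.5 CPM in set B replicates 1, 2 and 3, against 39034, 19743 and 36942 CPM in vehicle. This list includes Mbp and Sox10, which are also in the oligodendrocyte and precursor lists, so its sum is not a level of Schwann cells alone. In vehicle day 7 it summed to 17147 to 22353 CPM. The meningeal genes summed to 1451, 4309.85 and 1971 CPM in set B, against 4727, 3329 and 2953 CPM in vehicle. Set B replicate 2 thus stood apart from the others of its group and overlapped vehicle in both lists. Without it, 9 Schwann cell genes and 8 meningeal genes were called lower, in a fit that called 1654 of all 15988 genes lower. With vehicle day 7 as the control, 0 of either list were called, the medians were 0.59 and 0.50, and Slc47a1 was at 0.60 and Acan at -0.49. The bone list and the B and T cell list also had 0 called there, at medians of -0.56 and -0.59. The fat cell list had 1 called higher and 0 lower there, at a median of -0.094. Lists with 0 called were pericytes (median 0.21), ependymal cells (0.20), skeletal muscle (-1.94), red blood cells (-1.58) and neutrophils (-1.08). Among their most abundant members were Vtn at 0.24, Foxj1 at 0.21, Acta1 at -2.09 and S100a9 at -1.23, and none of them passed the test. Skeletal muscle genes summed to 1255, 121 and 133 CPM in set B, against 180.5, 3573 and 935 CPM in vehicle.

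Inflammatory and stress genes, again beside 4.09% called higher and 5.87% called lower, varied by list. The interferon-stimulated list (22 genes, median 0.05) and the antigen presentation list (14 genes, median -0.33) had 0 called. Of 15 cytokine genes Il1b was called lower at -2.14, at 0.11 to 0.224 CPM in set B against 0.195 to 1.19 CPM in vehicle (median -0.12). Of 22 glial activation genes 3 were called lower (median -0.54), the adhesion receptor gene Cd44 at -1.90, the secreted phosphoprotein gene Spp1 at -0.73 and the lipid receptor gene S1pr3 at -1.42. Of 17 antioxidant genes Hmox1, the heme-degrading enzyme, Cat, catalase, and Prdx1 were called lower at -1.30, -0.58 and -0.38 (median -0.11). Of 18 clock genes Npas2, Per2 and Tef were called higher at 0.86, 0.59 and 0.36, and Dbp lower at -0.61 (median 0.16). Jun was called lower at -0.45 among 22 immediate early genes (median 0.03), Mcm5 at -0.90 among 20 cell division genes (median -0.88), and Zmat3 was higher at 0.34 among 16 p53 targets (median 0.03). Respiratory chain genes had 0 of 25 called (median 0.02). Of 23 ribosomal protein genes Rpl23 was called lower at -0.77, with 13.7 to 18.8 CPM in set B against 24.0 to 29.8 CPM in vehicle day 1 and 24.6 to 26 CPM in vehicle day 7. It was at 14.1 to 17.0 CPM in set B at days 22 and 35. Of 7 genes of RNA without poly(A) tails Hist1h1c and Hist1h2bc were called lower at -1.04 and -0.49 (median -0.66), and of 18 nuclear long RNA and splicing genes D4Wsu53e was lower at -0.30 (median 0.06). Against vehicle day 7 the log2 fold changes of S1pr3, Hmox1, Dbp and D4Wsu53e had the other sign, at 0.33, 0.10, 0.38 and 0.042. The glial activation list had 0 called there, at a median of 0.17. The cytokine, antioxidant, clock, cell division, poly(A)-lacking RNA and splicing lists also had 0 called there. The immediate early and p53 lists each had 1 called higher and 0 lower, and the ribosomal list 1 higher and 1 lower.

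**Figure D5:**
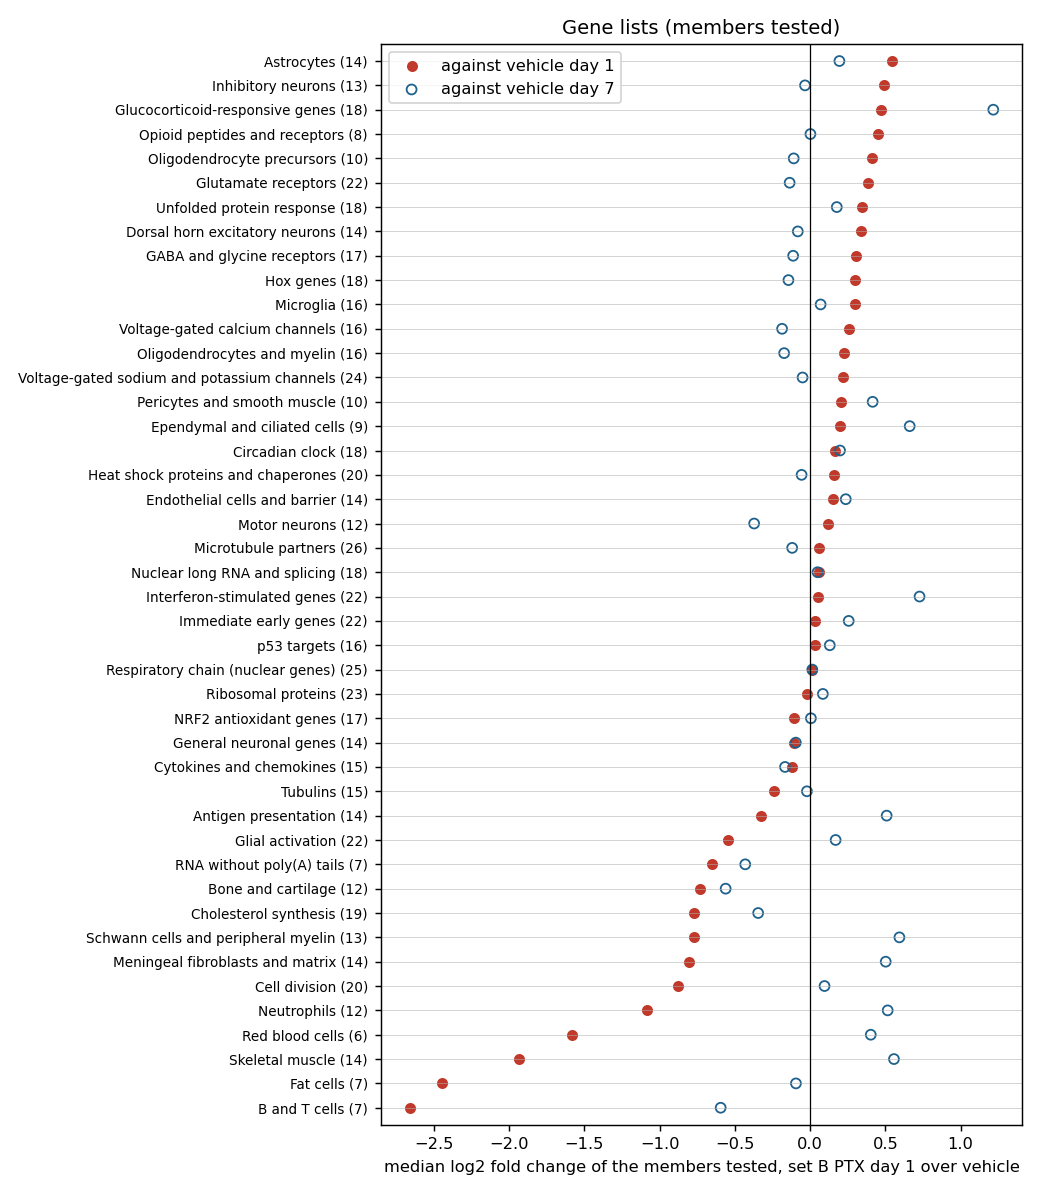
Median log2 fold change over the members tested (number in brackets) of each list, set B PTX day 1 over vehicle day 1 (filled) and over vehicle day 7 (open). The ganglion list is outside the range shown, at -6.70 against vehicle day 1 and 0.23 against vehicle day 7, and the glucocorticoid-responsive list has the highest median against vehicle day 7, at 1.22.

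Set B and set A also differed where drug and day were the same. Against set A PTX day 1, set B PTX day 1 had 5210 genes called (32.9%), 2928 higher (18.5%) and 2282 lower (14.4%). The count was 435 with only the 6 libraries compared and 2419 to 6181 when 1 library was left out, the lowest without set A PTX replicate 1. Within set A, PTX day 1 against vehicle day 1 gave 0 genes called by edgeR (0%), with 3398 at an unadjusted p under 0.05 and a smallest BH-adjusted p of 0.0599, while DESeq2 called 188. Without set A PTX replicate 2 edgeR called 1782 genes in that comparison, without vehicle replicate 3 it called 10, and without any other single library 0. All 14 astrocyte genes were called higher in set B PTX than in set A PTX (median 1.04), and all 10 ganglion genes lower (median -7.51). Of the 18 glucocorticoid-responsive genes 6 were called higher (median 0.25). The set B libraries of PTX day 1 had 17661067 to 19171936 gene reads and 21.9 to 24.8 reads outside genes per 100 gene reads, against 26719419 to 30096948 and 17.8 to 18.7 in set A PTX day 1.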

How the data were processed

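Poly(A) RNA of lumbar spinal cord was sequenced with a stranded kit and 50-base single reads, per the labels' protocols, and bcl2fastq, TopHat2, HTSeq and mm9 are named in the submitters' processing notes, none with a version. Each library has its own table, deposited as raw read counts for every gene. Rows that name no gene (HTSeq summary lines) held 43.7% to 50.1% of the reads listed in cord tables and were left out. Reads with several places in the genome are among them, so near-identical genes, tubulins and ribosomal proteins included, are uncertain. Summary lines are spelled differently in set B and set A tables.

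From the counts, edgeR 4.0.16 in R 4.3.3 (TMM scaling, filterByExpr with a smallest count of 10, quasi-likelihood F test, BH adjustment over 15815 genes) was fitted once to the 21 cord libraries of 7 groups. Standard errors are on the log2 scale. Comparisons with vehicle day 7, set A PTX day 1 and later set B days came from the same fit. Ganglia libraries were used for levels only. DESeq2 1.42.0, other scaling, no filter, only the groups compared, a replicate block, a 1.5-fold threshold and leaving out each library were tried. Vehicle day 1 reduced to its first library was added after the data were seen. The scripts were tested on simulated data.

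The libraries compared and all gene lists were chosen with earlier results of these data known. Named genes were the 8 highest and 8 lowest log2 fold changes among called genes without overlap between the groups whose average log2 CPM reached 1, leaving out predicted genes, pseudogenes, small RNAs and immune receptor segments. From each list came the up to 4 called members with the smallest p or, with none called, the most abundant member. All others were picked once their values were known, among them Scn10a, Mt1, Sgk1 and Errfi1. Some genes that meet the rule are not reported here. Of 715 list genes 711 were in the tables, 18 through another symbol. Same-numbered libraries were not paired: correlations of their deviations were -0.284, -0.224 and -0.221 between set B PTX day 1 and vehicle day 1. Intervals for counting error are not given, since the spread between libraries exceeds it.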

Additional observations from a re-analysis of the deposited data

Results flagged for a closer look

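The day 1 PTX groups differed from each other by the test of the difference itself. Between set B and set A, 5210 genes were called by edgeR at a BH-adjusted p of 0.05. Genes with the lowest fold changes against vehicle were among them. As log2 fold changes of set B over set A PTX day 1, Acpp was at -6.90, Tspan8 at -5.33 and Ngfr at -5.41. Ptgir was at -5.37, Mmp25 at -5.35, Ppef1 at -5.00 and Arhgap28 at -4.78. In set A PTX day 1 over vehicle day 1 the same genes had log2 fold changes of 1.32, 0.50, 0.76, 0.74, 1.06, 0.89 and 0.99 in that order, none of them called. Set and sampling cannot be told apart in these differences.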

How the results depend on the processing

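For set B PTX day 1 against vehicle day 1, 1575 genes were called, against 0 with only the groups compared, 128 with vehicle day 7, 244 with vehicle days 1 and 7, 124 with the 1.5-fold threshold, 22 with vehicle day 1 reduced to its first library, 60 with set A PTX day 1 left out too, and 441 to 2832 when 1 library was left out. Against set A PTX day 1 the count was 435 with only the groups compared and 2419 to 6181 when 1 library was left out. Set A PTX day 1 against vehicle had 188 calls with DESeq2, 1 with the replicate block and 0 to 1782 when 1 library was left out, the highest without set A PTX replicate 2. Set B day 1 against days 22 and 35 had 57 with only the groups compared, 222 with DESeq2 and 55 to 108 when 1 library was left out. The cause of these moves was not tested. With the replicate block, 1232, 4970 and 85 genes were called in the other comparisons; same-numbered libraries share only a number. Of 106 called genes considered for the text, 49 kept their call in all 6 fits without 1 library and 57 lost it in at least 1. Each list median was followed over every alternative setting. It moved by less than the standard error over its members in 509 cases of a list and a setting. In 211 cases it moved by more.

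Log2 fold changes that turned their direction with vehicle day 7 were Rab11fip4 -1.18, Cit -0.79, Gatsl2 -0.77, Acpp 0.57, Tspan8 1.03, Ngfr 0.0093, Ptgir 0.94, Arhgap28 0.25, Avil 0.59, Scn11a 0.48, Scn10a 1.33, Trib3 0.31, Gm98 -0.14, Gpr17 -0.69, Nos1 -0.99, Lhx1 -0.061, Tacr1 -0.036, Dbp 0.38, Grik1 0.14, Cacnb3 0.23, Hsph1 -0.17, Hmox1 0.10, Slc47a1 0.60, Acan -0.49, S1pr3 0.33, Chordc1 -0.12, Kcnc1 -0.13, Cacna1i -0.31, Hoxa10 -0.083, D4Wsu53e 0.042, Hsp90b1 -0.018 and Trpv1 1.04. With vehicle day 1 reduced to its first library they were P2rx3 0.18, Scn11a 1.21, Scn10a 1.22, Isl1 0.19, Calca 0.54, Prph 0.20, Ttl 0.17, Grik1 0.0058 and Bag3 0.25, and with set A PTX day 1 left out too P2rx3 0.18, Scn11a 1.21, Scn10a 1.22, Isl1 0.19, Calca 0.54, Prph 0.20, Ttl 0.17, Grik1 0.0070 and Bag3 0.25. Nos1 ranged over -0.83 to 4.97 when 1 library was left out, the lowest without set B replicate 1. Depth limits genes near 1 CPM, and set B libraries were the shallower ones.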
